A study of Mus musculus with 45 samples.

Results

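Untreated neural tube organoids collected 78 h after day 2 were compared with separate organoids collected at day 2, across all genes of the deposited count table. The comparison used 6 of the 45 libraries of the series, chosen by their labels: 3 biological replicates of each group. Both groups came from wild-type R1 cells, a male mouse embryonic stem (ES) cell line, embedded in Matrigel and grown clonally in N2B27 medium. Day 2 is 48 h after seeding. From then on, the untreated group received N2B27 alone, whereas a parallel group received N2B27 with all-trans retinoic acid (RA), the vitamin A derivative that patterns the neural tube from head to tail. The titles place the untreated group at 78 h and the treatment protocol in the labels names 80 h instead. The title's time is used here. The sources also differ in the RA dose, which the paper's methods give in nM and the treatment protocol in the labels gives in uM. Each library is bulk poly(A) RNA from many organoids of 1 cell line, so that fewer cells of a type and less RNA per cell cannot be told apart.

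ES cells in N2B27 leave naive pluripotency, in which a network of transcription factors including Nanog, Esrrb and Zfp42 sustains self-renewal. They pass through a formative, epiblast-like state with high Otx2, Fgf5 and de novo DNA methyltransferases, and then form neuroepithelium, the polarized tissue that makes the neural tube. Neuroepithelial cells express Sox1 and Pax6, replace E-cadherin with N-cadherin, and take on a position along the head to tail axis, which Otx2 marks at the front and the Hox genes mark from the hindbrain backwards.

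Total counts were between 21896134 and 26273480 in the day 2 libraries and between 26469692 and 36387691 in the untreated 78 h libraries. Levels are given in CPM, read counts relative to the size of the library, scaled over all 45 libraries. A gene was called higher or lower when its adjusted p in edgeR's quasi-likelihood test was under 0.01 and its log2 fold change was past 1. Of 16681 genes tested, 3392 were higher at 78 h (20.3%) and 2272 were lower (13.6%). These shares are the background for each count below, and the median log2 fold change over all tested genes was 0.03. Genes near 0 counts in 1 group were tested only where the other group held enough counts. For them only 1 direction could be called, here and in each list. The groups did not overlap in 78.7% of the tested genes. Genes with every 78 h library above day 2 made up 40.8% of those tested and genes with every one below it 37.9%. In a principal component analysis, the first component held 91.7% of the variance and separated the groups. The second held 3.18% and separated day 2 replicate 3 from the other day 2 libraries. Day 2 replicates 1 and 2 have library numbers under 10000, and day 2 replicate 3 and the 3 untreated 78 h libraries have numbers above it. These sets are called the earlier and the later library series here, but the labels name no series or batch. The number of day 2 replicate 3 also lies apart from those of the 78 h libraries. A fit within the later series alone holds 1 day 2 library, which is assumed to vary as the 3 libraries of 78 h did. It cannot be taken to compare libraries of the same batch. Averaged over Ddx3y, Eif2s3y, Kdm5d and Uty, Y-linked expression lay between 67.9 and 73.6 CPM at day 2 and between 29.2 and 32.1 CPM at 78 h, and 3 of these 4 genes were called lower. Its part in the results was not tested. The untreated libraries of 30 h, used only for the course over time, stood apart at 2.58 to 3.29 CPM. Xist, a transcript of the X chromosome, was called lower, at 77.2 CPM at day 2 and 25.6 CPM at 78 h. It stood at 3.55 CPM in the untreated libraries of 30 h. The source of these reads in a line described as male was not tested.

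**Figure D1:**
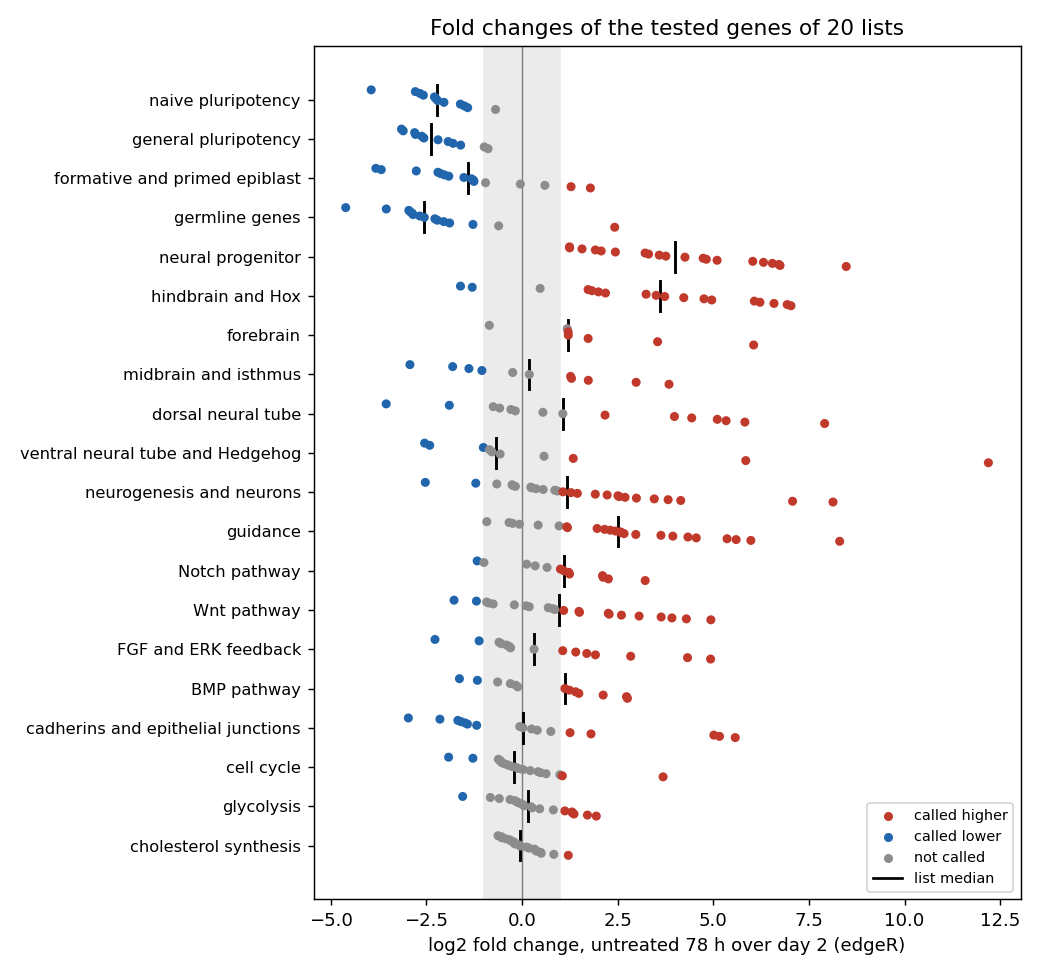
Log2 fold change (x axis) of the tested genes of 20 gene lists (rows). Each point is a gene, coloured by its call, black bars are list medians and the grey band spans a log2 fold change of 1 in either direction. The neural progenitor genes all lie to the right of the band and the naive pluripotency genes, other than Nanog, all to its left; values past 8 are of genes at or near 0 counts at day 2 and depend on the prior count.

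The naive pluripotency genes were lower at 78 h. Of 12 members, all tested, 11 were called lower and 0 higher, with a median log2 fold change of -2.23. Zfp42 (Rex1), a classical marker of naive ES cells, had 275, 265 and 260 CPM in the day 2 libraries and 44.3, 38.03 and 33.96 CPM at 78 h, a log2 fold change of -2.79 ± 0.08 (SE, n = 3 per group; adjusted p = 2.7e-14, edgeR). The groups lay far apart relative to the spread within each. Nr0b1 (Dax1), a nuclear receptor of the naive network, fell from 74.99 ± 6.6 to 4.95 ± 1.0 CPM (SD, n = 3), and Esrrb, another nuclear receptor, from 184 ± 7.3 to 37.7 ± 3.6 CPM. The exception in the list was Nanog, the homeobox factor, which had 159, 151 and 141 CPM at day 2 and 91.4, 103.5 and 85.04 CPM at 78 h. Its log2 fold change of -0.69 ± 0.07 had an adjusted p of 1.1e-07 in edgeR and did not reach the fold required for a call, although the groups did not overlap.

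The genes of general pluripotency gave a similar count, 10 of 12 lower and 0 higher, with a median of -2.38. Pou5f1 (Oct4), the POU-domain factor required for pluripotency, had 968, 915 and 1069.96 CPM at day 2 and 285, 310 and 253 CPM at 78 h, a log2 fold change of -1.80 ± 0.08 (adjusted p = 4.0e-12, edgeR). It was thus still at 253 CPM or more in each 78 h library. Tdh, the threonine dehydrogenase of mouse ES cells, fell from 585 ± 12 to 66.0 ± 6.5 CPM, and Dppa4 from 180 ± 12 to 20.99 ± 1.5 CPM. The 2 members not called were Sox2, at 406 ± 9.4 and 220 ± 7.4 CPM, and Sall4, at 434 ± 35 and 219 ± 15 CPM. Sox2 serves both pluripotent and neural cells.

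Of the 17 genes of the formative and primed epiblast, 16 were tested, 11 were lower and 2 higher, with a median of -1.42. The de novo methyltransferase Dnmt3b had 1880.2, 1893 and 1897 CPM at day 2 and 715, 857 and 781 CPM at 78 h (log2 fold change -1.27 ± 0.07, adjusted p = 3.0e-11, edgeR). Its cofactor Dnmt3l fell much further, from 598 ± 12 to 46.9 ± 7.5 CPM. Dnmt3a fell from 914 ± 18 to 224 ± 8.8 CPM. Among the transcription factors, Otx2 fell from 245 ± 13 to 65.0 ± 1.6 CPM and Foxd3 from 72.0 ± 5.1 to 5.13 ± 0.70 CPM. Enpp2, which encodes the enzyme that makes lysophosphatidic acid, had 47.8, 55.6 and 49.8 CPM at day 2 and 9.93, 13.4 and 10.01 CPM at 78 h. Its groups did not overlap, and the log2 fold change was -2.20 ± 0.10 (adjusted p = 4.8e-12, edgeR). The called genes that rose were Lefty1 and Lefty2, secreted inhibitors of Nodal, and both were under 10 CPM at day 2 and at 78 h. Over the course between, Lefty1 reached 14.3 CPM at 42 h. Nodal itself fell from 114 ± 2.7 to 16.8 ± 3.4 CPM. Fgf5, at 39.5 ± 1.3 and 20.4 ± 2.7 CPM, was not called.

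The other DNA methylation genes moved differently among themselves. The dioxygenases Tet1 and Tet2, which oxidize methylcytosine, fell (Tet1 from 759 ± 149 to 229 ± 15 CPM), whereas Tet3 rose from 50.6 ± 3.8 to 132 ± 16 CPM. The maintenance methyltransferase Dnmt1 and its partner Uhrf1 were not called, at 639 ± 21 and 505 ± 54 CPM for Dnmt1. Within the Myc family, Mycl rose from 24.1 ± 2.5 to 114 ± 7.9 CPM while Myc fell from 40.3 ± 3.1 to 8.19 ± 0.39 CPM and Mycn from 469 ± 35 to 140 ± 7.3 CPM. Among RNA-binding proteins of the let-7 axis, Lin28a had 998 ± 35 and 1036 ± 72 CPM and was not called. Lin28b rose from 95.3 ± 1.9 to 206 ± 10 CPM, and Hmga2, a chromatin protein whose mRNA let-7 represses, rose from 16.6 ± 1.7 to 173 ± 7.6 CPM.

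Germline genes, which are silenced in somatic cells, were lower as a group. Of 17 members, 15 were tested, 13 were lower and 1 was higher, with a median of -2.55. Rpl10l, a ribosomal protein gene retrocopy used in the testis, had 80.3, 76.3 and 82.5 CPM at day 2 and 3.99, 3.33 and 2.62 CPM at 78 h, a log2 fold change of -4.61 ± 0.10 (adjusted p = 2.0e-15, edgeR). It shares sequence with its parent gene, so its reads may be divided between copies. Tex19.1, a regulator of retrotransposons, fell from 141 ± 4.0 to 19.6 ± 3.3 CPM, and Hormad1, a meiotic chromosome axis protein, from 26.4 ± 1.2 to 2.31 ± 0.85 CPM. The member that rose was Tdrkh, a tudor protein of the piRNA pathway, from 7.69 ± 0.26 to 41.4 ± 2.1 CPM. Sycp3, a synaptonemal complex protein, had 25.7 ± 0.27 and 16.9 ± 3.3 CPM and was not called.

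The sequence CACGTG, an E-box that reads the same on both strands, was searched in the 250 bases upstream of each RefSeq start. It occurred in 8 of the 13 germline genes called lower, beside 6.86% of the 27025 genes with a start in RefSeq. The motif holds a CpG, and the germline starts had a median of 18 CpG in this window beside 6 over all starts, so that the shares do not compare like with like. Sycp3, which was not called, holds the motif as well. No match was found upstream of Rpl10l, Tex19.1 and Dazl, which fell as well. A match is a description of the letters and not a bound site. Upstream sequences (RefSeq, GRCm38.p6) are shown for 2 of the germline genes that fell and hold the motif, with CACGTG in capitals: Hormad1 at chr3:95559427-95559676 (plus strand), which holds it more than once, and Sycp1 at chr3:102936101-102936350 (minus strand).
Hormad1: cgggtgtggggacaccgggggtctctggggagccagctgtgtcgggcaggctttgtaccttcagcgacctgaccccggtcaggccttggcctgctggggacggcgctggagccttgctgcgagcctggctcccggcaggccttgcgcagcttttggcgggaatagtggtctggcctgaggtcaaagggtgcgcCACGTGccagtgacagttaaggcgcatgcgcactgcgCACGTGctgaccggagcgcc
Sycp1: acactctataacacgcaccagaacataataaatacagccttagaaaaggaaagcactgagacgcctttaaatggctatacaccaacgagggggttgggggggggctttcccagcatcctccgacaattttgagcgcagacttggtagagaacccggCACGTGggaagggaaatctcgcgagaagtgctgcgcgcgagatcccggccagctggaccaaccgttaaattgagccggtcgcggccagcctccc

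The libraries also held reads over the hairpins of the 2 microRNA clusters of pluripotent cells, which were chosen for description after their values were seen. The libraries were made from poly(A) RNA, so these reads come from primary transcripts and do not measure mature microRNAs. The 12 hairpin genes were matched to RefSeq mature sequences by coordinates. Their 3p arms are shown because several from both clusters carry the same seed, AAGUGCU at bases 2 to 8, in capitals.
mmu-miR-291a-3p: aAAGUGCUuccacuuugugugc
mmu-miR-294-3p: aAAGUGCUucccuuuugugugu
mmu-miR-295-3p: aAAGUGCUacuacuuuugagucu
mmu-miR-302b-3p: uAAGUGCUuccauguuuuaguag
mmu-miR-302d-3p: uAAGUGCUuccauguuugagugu

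The miR-290 cluster on chromosome 7 and the miR-302 cluster on chromosome 3 are given side by side as a description, since they were chosen with their values known. The calls below come from the fit over all genes and are no test of the clusters. Reads over the miR-290 cluster, summed, came to 30.4, 32.7 and 17.0 CPM at day 2 and to 5.32, 4.07 and 4.07 CPM at 78 h. The groups did not overlap, with day 2 replicate 3 the lowest of its group. Reads over the miR-302 cluster came to 2.90, 4.15 and 2.41 CPM at day 2 and to 3.67, 2.68 and 3.23 CPM at 78 h, and here the groups overlapped. These levels rest on 58 to 116 reads per library. The log2 ratio of the first cluster to the second was 3.06 ± 0.29 (SD, n = 3) at day 2 and 0.49 ± 0.14 at 78 h, a difference of -2.57. All 6 tested hairpins of the miR-290 cluster were called lower, with Mir291b, the most abundant, falling from 9.17 ± 2.9 to 1.47 ± 0.14 CPM. Hairpins of the same cluster are not independent of each other, so the number called adds no weight. Mir291a and Mir292 lost the call within the later library series, where the day 2 arm is 1 library and the spread comes from the 78 h libraries. They also lost it in the fit of all 6 libraries with library series as a term (log2 fold changes of -1.98 and -1.11). In that fit the change again rests on day 2 replicate 3. None of the 4 tested hairpins of the miR-302 cluster was called by edgeR (0 at an unadjusted p under 0.05, and 0 by DESeq2). Nlrp12 lies antisense to the miR-290 hairpins, and whether the counting used strand is not given in the sources used here.

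**Figure D2:**
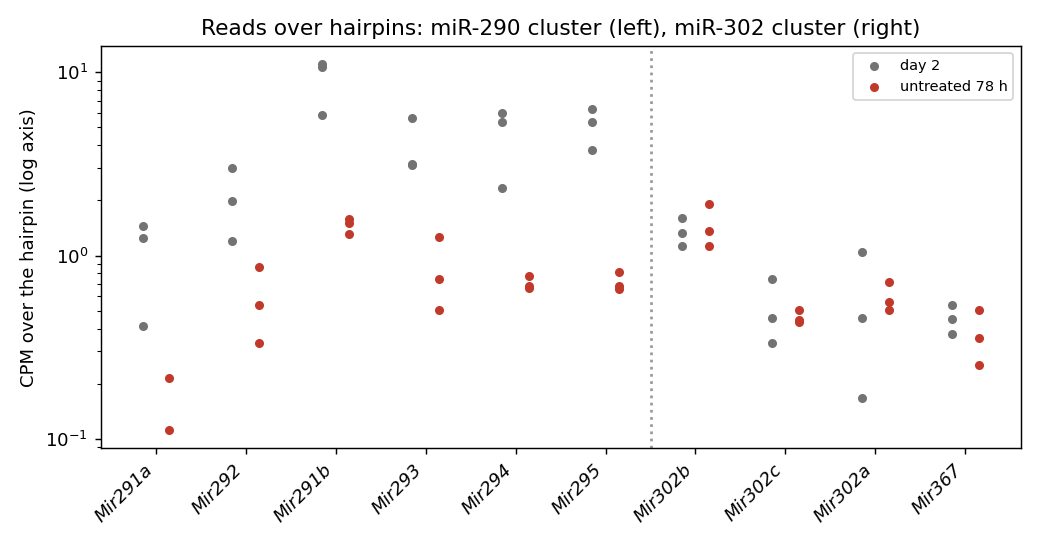
CPM over each microRNA hairpin (log axis) in the 3 day 2 libraries (grey) and the 3 untreated 78 h libraries (red), with the miR-290 cluster left of the dotted line and the miR-302 cluster right of it; a library at 0 is not drawn. The groups separate left of the line (Mir291b 9.17 against 1.47 CPM) and mix right of it.

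All 20 neural progenitor genes were tested and called higher, with a median log2 fold change of 4.01. Sox1, the earliest definitive marker of neuroectoderm, had 2.53, 1.75 and 2.03 CPM at day 2 and 150, 175 and 183 CPM at 78 h, a log2 fold change of 6.31 ± 0.11 (adjusted p = 1.9e-16, edgeR). Hes5, a Notch target that maintains neural progenitors, had 0.124, 0.200 and 0.083 CPM at day 2 and 44.3, 45.4 and 56.1 CPM at 78 h. No 78 h library came near the day 2 range for either gene. Pax6 rose from 17.6 ± 1.5 to 95.5 ± 6.4 CPM, and the intermediate filament genes Nes and Vim rose from 29.3 ± 0.94 to 290 ± 25 CPM and from 115 ± 1.7 to 273 ± 8.7 CPM. The growth factor Ptn rose from 8.03 ± 0.96 to 524 ± 60 CPM. POU factors of the neural lineage rose while Pou5f1 fell: Pou3f2 (Brn2) went from 0.49 ± 0.17 to 51.3 ± 3.4 CPM and Pou3f3 (Brn1) from 0.62 ± 0.22 to 21.8 ± 1.9 CPM. Pou3f1 (Oct6), which formative epiblast also expresses, fell from 200 ± 25 to 69.8 ± 5.3 CPM.

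Position along the body axis was read from lists of regional genes. Of the 22 hindbrain and Hox genes, 18 were tested, 15 were higher and 2 lower, with a median of 3.62 (3.37 with Hoxd3, at 0 counts in all day 2 libraries, set to its bound). Hoxb1, which marks rhombomere 4 of the hindbrain, had 1.99, 2.298 and 2.242 CPM at day 2 and 57.1, 62.1 and 57.5 CPM at 78 h (log2 fold change 4.76 ± 0.09, adjusted p = 4.7e-16, edgeR). Hoxb2 rose from 0.91 ± 0.46 to 68.2 ± 1.6 CPM and Hoxa2 from 0.17 ± 0.03 to 23.6 ± 3.6 CPM. Egr2 (Krox20), which marks rhombomeres 3 and 5, had 0.290, 0.4497 and 0.166 CPM at day 2 and 25.7, 29.02 and 54.2 CPM at 78 h. Its 78 h libraries differed among themselves, with replicate 3 the highest, but all lay far above day 2. The cofactors Meis1 and Meis2 rose as well, to 67.5 ± 2.8 and 173 ± 13 CPM. The posterior genes Cdx1 and Cdx2 fell, both from under 6 CPM.

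Over all 38 Hox genes with a count, 22 were tested, 20 were higher and 2, Hoxc13 and Hoxd13, lower. Some, such as Hoxd3, Hoxc5 and Hoxc9, had means of 0, 0.028 and 0.028 CPM at day 2 and were tested through their 78 h libraries. For such genes only a rise could be called, so the count of genes higher was partly set by the filter. The levels at 78 h were not graded evenly along the clusters. At 10 CPM or more stood Hoxa2, Hoxa3, Hoxb1, Hoxb2, Hoxb3 and Hoxb9. Between them in the B cluster, Hoxb4 reached 2.54 ± 0.31 CPM and Hoxb5, which was not tested, 0.24 ± 0.08 CPM, whereas Hoxb8 reached 6.34 ± 0.33 CPM and Hoxb9, normally a trunk gene, 17.7 ± 2.2 CPM. Per kilobase of exon, Hoxb9 reached 6.86 CPM, Hoxb8 2.41 CPM and Hoxb4 0.99 CPM. For other pairs of the cluster the order turned with length: Hoxb1, at 25.4 CPM per kilobase, lay above Hoxb2, at 19.5, and Hoxb7, at 1.34, above Hoxb4. Antisense transcripts are annotated at several of these genes, among them Hoxb2, Hoxb3, Hoxb5 and Hoxa3.

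Forebrain genes were mostly near 0. Of 19 members, 13 were under 1 CPM in both groups and 7 were tested, of which 5 were higher and 0 lower. Sp8, a zinc finger factor also used outside the forebrain, rose from 4.86 ± 0.21 to 56.8 ± 2.8 CPM. The other called members, Fezf2, Lhx2, Lhx5 and Dmrta2, stayed under 3 CPM. Six3, Otx1, Rax, Emx1 and Emx2 were each under 0.3 CPM in both groups. Among 12 midbrain and isthmus genes, 11 were tested, 5 higher and 4 lower. En1 rose to 2.17 ± 0.18 CPM and Pax5 to 2.72 ± 0.14 CPM, while En2 fell from 8.01 ± 0.75 to 2.303 ± 0.42 CPM and Pax8 from 7.90 ± 0.71 to 1.02 ± 0.23 CPM. Gbx2, which sets the midbrain-hindbrain boundary, had 24.1 ± 2.3 and 33.5 ± 5.6 CPM and was not called.

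**Figure D3:**
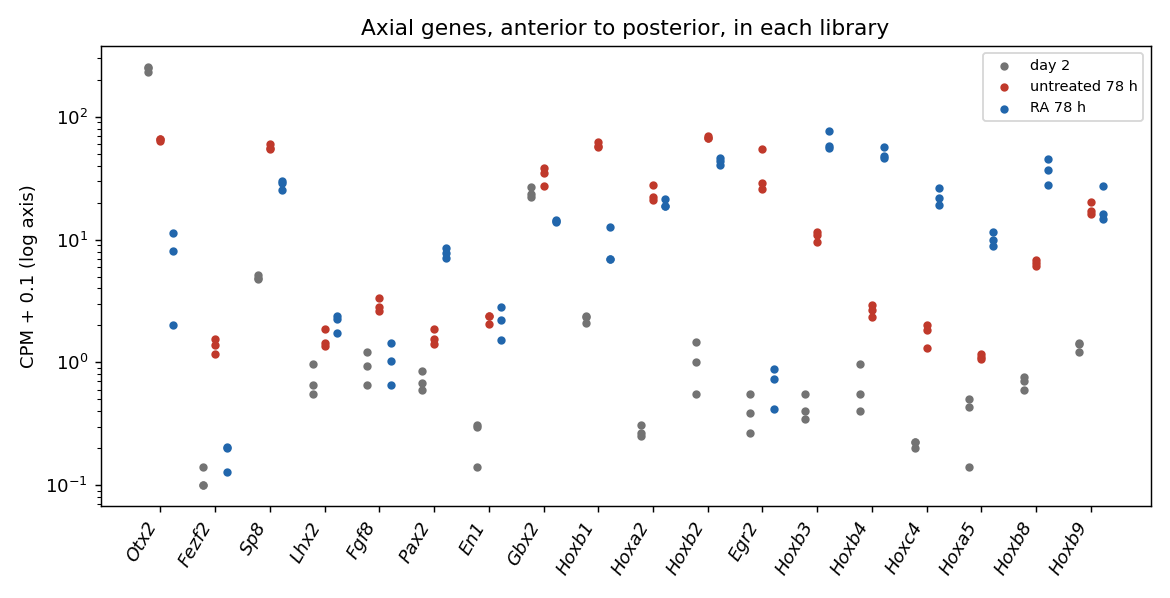
Levels of 18 axial genes, ordered broadly from anterior to posterior (x axis), as CPM + 0.1 on a log axis in the 3 libraries each of day 2 (grey), untreated 78 h (red) and RA 78 h (blue). The order among the hindbrain genes is not strictly by position. Hoxb1 and Egr2 are highest in untreated organoids at 78 h (Hoxb1 at 57.1 to 62.1 CPM), and Hoxb4, Hoxc4 and Hoxa5 are highest with RA.

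Along the dorsal to ventral axis, 7 of 15 tested dorsal genes were higher and 2 lower, with a median of 1.07. Pax3 and Pax7, paired-box factors of the dorsal neural tube, rose from 0.09 ± 0.04 to 22.3 ± 2.8 CPM and from 0.51 ± 0.29 to 21.5 ± 1.4 CPM. Olig3 rose from 1.00 ± 0.12 to 34.5 ± 1.7 CPM. Msx1, a target of BMP signalling at the dorsal edge, fell from 3.97 ± 0.41 to 1.06 ± 0.21 CPM. Of 10 tested ventral and Hedgehog genes, 3 were higher and 3 lower, with a median of -0.68. Dbx1, which marks progenitors in the middle of the neural tube, had 0 counts in all 3 day 2 libraries and 22.01, 18.4 and 23.1 CPM at 78 h, at least 159-fold above the mean level of 3 counts per day 2 library. Nkx6-1 rose from 0.10 ± 0.02 to 6.19 ± 0.54 CPM. Dbx2 was also called higher, but lost the call in some fits with a library left out. The Hedgehog targets Gli1 and Ptch1 fell, Gli1 from 46.6 ± 2.6 to 8.81 ± 0.83 CPM and Ptch1 from 258 ± 8.2 to 128 ± 7.0 CPM. Ptch1, at a log2 fold change of -1.01, lay at the threshold. Shh, Olig2 and Nkx2-2 were each under 0.2 CPM in both groups.

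Genes of neurogenesis were higher in part and low in level. Of 26 members, all tested, 14 were higher and 2 lower, with a median of 1.18. The proneural and early neuronal factors Nhlh1 and Neurog1 reached 4.81 ± 0.74 and 1.64 ± 0.14 CPM, and Dcx, a microtubule protein of young neurons, 4.90 ± 0.93 CPM. Nefm, a neurofilament subunit, rose from 3.15 ± 0.28 to 25.2 ± 2.3 CPM. Tubb3, the neuronal tubulin, was not called, at 56.8 and 67.8 CPM. Neurod1 fell from 38.3 ± 1.8 to 6.64 ± 0.42 CPM and Ina, another neurofilament gene, from 138 ± 4.1 to 59.9 ± 2.9 CPM. In the Notch pathway, 8 of 13 tested genes were higher and 1 lower. These included the targets Hes1 (7.504 ± 0.21 to 35.9 ± 2.0 CPM) and Nrarp (3.20 ± 0.34 to 29.8 ± 0.39 CPM) and the glycosyltransferase Lfng (5.93 ± 1.0 to 26.0 ± 3.0 CPM).

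Guidance molecules, which steer axons and keep cell groups apart, mostly rose: 18 of 24 were higher and 0 lower, with a median of 2.51. Robo2, a Slit receptor, had 0.207, 0.050 and 0.166 CPM at day 2 and 47.4, 46.5 and 49.4 CPM at 78 h. The Eph receptor Epha7 rose from 4.195 ± 0.32 to 172 ± 17 CPM and the ligand Efnb1 from 2.46 ± 0.25 to 50.1 ± 4.7 CPM. In the Wnt pathway, 11 of 22 tested genes were higher and 2 lower. The secreted antagonists Sfrp1 and Sfrp2 rose from 33.3 ± 0.19 to 504 ± 63 CPM and from 17.2 ± 0.39 to 214 ± 8.0 CPM, and the receptor Fzd3 from 15.8 ± 3.9 to 312 ± 17 CPM. Among FGF genes, 7 of 15 were higher and 2 lower. The receptor Fgfr3 rose from 1.44 ± 0.34 to 44.4 ± 5.8 CPM, and the feedback inhibitor Spry4 fell from 72.0 ± 4.6 to 14.9 ± 0.54 CPM. In the BMP list, 7 of 13 tested genes were higher and 2 lower.

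The cadherins and epithelial junction genes split, with 5 of 17 tested genes higher and 7 lower. Cdh1 (E-cadherin) had 743, 737 and 689 CPM at day 2 and 215, 269 and 233 CPM at 78 h (log2 fold change -1.60 ± 0.07, adjusted p = 3.8e-12, edgeR). Cdh2 (N-cadherin), counted with the neural progenitor list, had 11.9, 11.5 and 13.9 CPM at day 2 and 148, 169 and 191 CPM at 78 h (log2 fold change 3.76 ± 0.09, adjusted p = 5.6e-15, edgeR). Epcam and Esrp1, an adhesion molecule and a splicing factor of epithelia, fell from 295 ± 5.8 to 110 ± 8.2 CPM and from 232 ± 6.9 to 52.5 ± 5.1 CPM. Crb2, an apical polarity protein, rose from 1.79 ± 0.50 to 58.0 ± 4.1 CPM, and Cdh6 and Cdh11 from under 1 CPM to 19.6 ± 1.1 and 10.7 ± 1.5 CPM. Of 9 genes for lysophosphatidic acid receptors and phosphatases, 2 were higher and 3 lower, among them Lpar6 (25.2 ± 0.88 to 57.7 ± 5.5 CPM) and Lpar1 (41.1 ± 2.0 to 17.8 ± 1.3 CPM).

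The remaining lists are given by their counts. In glycolysis, 6 of 20 genes were higher and 1 lower, and in cholesterol synthesis 1 of 20 was higher and 0 lower, with a median of -0.06. In the cell cycle list, 2 of 20 were higher and 2 lower, and Ccnd2 (cyclin D2) rose from 36.1 ± 2.5 to 466 ± 37 CPM. In the imprinted list, 9 of 18 were higher and 0 lower, with a median of 0.81. Of the matrix and integrin genes, 7 of 20 were higher and 3 lower, and of the stress and p53 genes, 4 of 16 were higher and 3 lower. Both shares for the stress genes lay near the background.

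The largest rises among genes of at least 5 CPM at 78 h with no overlap between groups were led, beside Dbx1 and Hes5, by Nr2f1 and Nr2f2, orphan nuclear receptors (COUP-TFs) of the neural tube. Nr2f1 had 0.0414, 0.0999 and 0.0415 CPM at day 2 and 57.6, 52.2 and 56.7 CPM at 78 h. BC024139 had 0 counts at day 2 and was at least 41.0-fold above 3 counts per library. Me3, Glra1, Sparcl1, Pantr1 and Vit had 1 to 3 counts in all at day 2 and reached 5.20 to 30.9 CPM. The largest falls were those of Rapgef4, Arhgef38, Cysltr2, Nlrc4, Clca3b, Rpl10l, Zp3, Accsl, D1Pas1, Platr7, Ttn and Aoah, with log2 fold changes from -5.67 to -4.29. D1Pas1, a testis helicase retrogene, fell from 93.0 ± 4.1 to 4.48 ± 0.66 CPM. Zp3 encodes an egg coat protein.

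In absolute level, the largest gains were those of Slc2a3, Mest, Crabp1, Prtg, Grb10 and Slc2a1. Crabp1, which binds RA in the cytoplasm, had 11.8, 12.1 and 16.4 CPM at day 2 and 1166, 1232 and 1187 CPM at 78 h. The glucose transporters Slc2a3 and Slc2a1 rose from 509 ± 27 to 1957 ± 141 CPM and from 425 ± 16 to 1052 ± 85 CPM. Mest and Grb10, both imprinted, rose to 1507 ± 117 and 809 ± 69 CPM, and Prtg (protogenin), a receptor of early neuroepithelium, from 47.7 ± 0.98 to 765 ± 52 CPM. The largest losses were those of the chaperone Hsp90aa1, the corepressor Trim28, Dnmt3b, the amino acid transporter Slc38a2, L1td1 and the ubiquitin ligase Trip12. Trim28 fell from 2498 ± 34 to 1111 ± 55 CPM and L1td1, an RNA-binding protein of ES cells, from 1175 ± 28 to 257 ± 40 CPM. Cyp26b1, which degrades RA and was chosen after its values were seen, had 0.622, 0.5996 and 0.457 CPM at day 2 and 102, 87.1 and 141 CPM at 78 h in organoids that received no RA.

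Markers of other cell types were examined as whole lists. For mesoderm and primitive streak, 4 of 11 tested genes were higher and 3 lower. The list's summed level was 27.6 to 29.1 CPM at day 2 and 19.8 to 23.2 CPM at 78 h, and T (brachyury) fell from 10.1 ± 0.90 to 3.45 ± 0.79 CPM. For endoderm, 1 of 6 was higher and 1 lower. Its sum rose from between 5.55 and 6.31 CPM to between 37.4 and 42.4 CPM through Cxcr4 (35.2 CPM), a chemokine receptor that neural cells also use, with Sox17 under 0.3 CPM in both groups. For trophoblast and surface ectoderm, 2 of 11 were higher and 4 lower, and Grhl2 fell from 180 ± 9.4 to 18.0 ± 2.6 CPM. For neural crest, 4 of 8 were higher and 2 lower. Its sum went from between 53.4 and 57.2 CPM to between 126 and 131 CPM, with Ednrb rising from 0.48 ± 0.38 to 59.9 ± 2.5 CPM and Tfap2b from 0 counts to 3.02 ± 0.58 CPM, at least 22.7-fold above 3 counts per library. Sox10, the defining crest factor, was at 0.296 and 0.372 CPM. For placode, 3 of 4 were higher and 1 lower, and for glia 1 of 5 was higher and 1 lower.

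The untreated libraries between the ends show when genes changed. For each called gene, the time taken was the first from which its mean log2(CPM + 1) was past the midpoint between day 2 and 78 h and stayed past it. By 18 h, 11.1% of the genes that rose and 12.6% of those that fell had passed it. By 42 h the shares were 65.6% and 82.2%. Among naive pluripotency genes, 11 of the 11 that fell had passed the midpoint by 42 h, and Zfp42 went from 267 CPM at day 2 to 159 CPM at 18 h and 58.1 CPM at 42 h. Among general pluripotency genes, 4 of 10 had passed it by 42 h. Pou5f1 was still at 573 CPM at 42 h and 385 CPM at 66 h. Of the 20 neural progenitor genes, 11 had passed it by 42 h. Sox1 reached 85.1 CPM at 42 h and 169 CPM at 66 h, the level it held at 78 h, whereas Hes5 was at 3.06 CPM at 42 h and 23.6 CPM at 66 h. In the hindbrain, Hoxb1 reached 53.4 CPM at 54 h, when Egr2 stood at 8.89 CPM. Fgf5, which was not called between the ends, rose to 64.2 CPM at 18 h and was back at 39.8 CPM at 54 h.

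**Figure D4:**
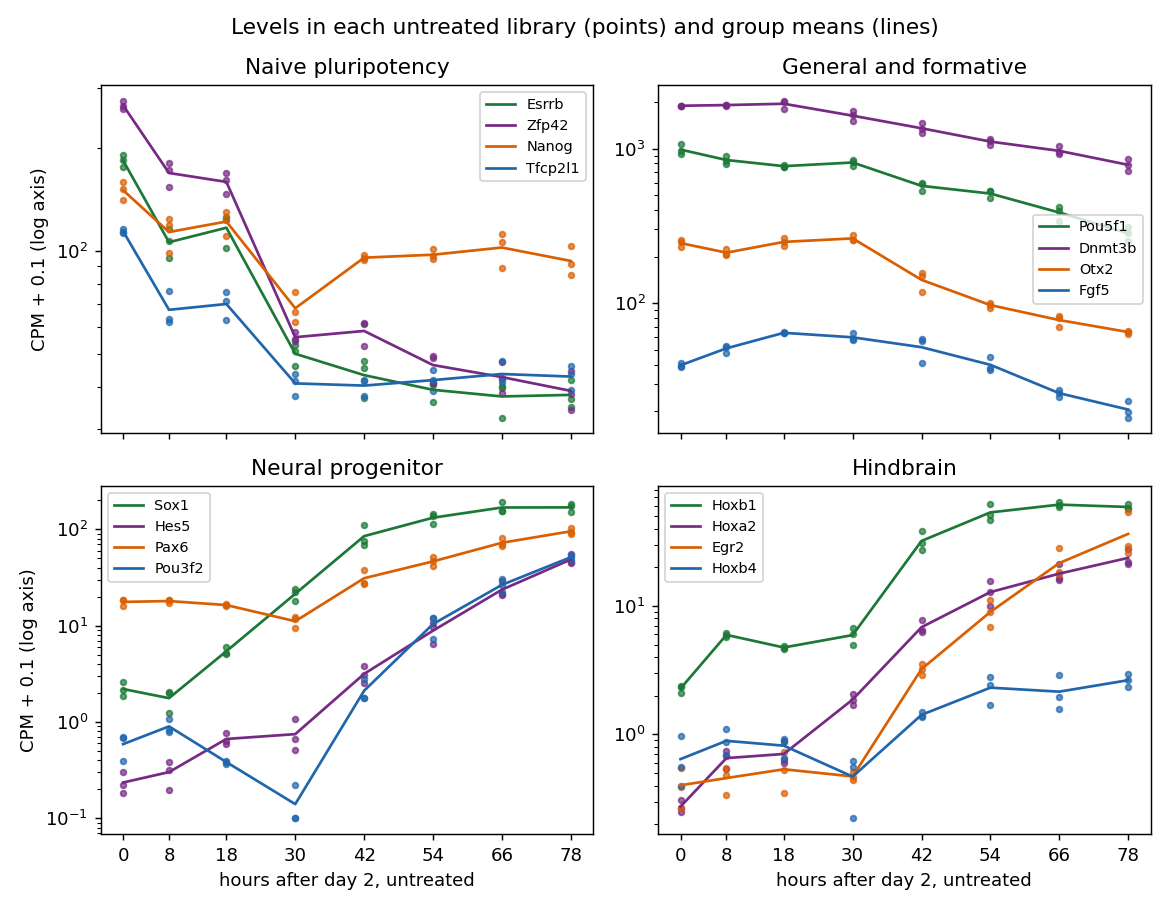
Levels of 16 genes in 4 groups over the untreated course, as CPM + 0.1 on a log axis against hours after day 2 (0 is day 2). Points are libraries and lines are group means; Zfp42 falls by 42 h, Pou5f1 declines to 78 h, and Hes5 and Egr2 rise later than Sox1 and Hoxb1.

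**Figure D5:**
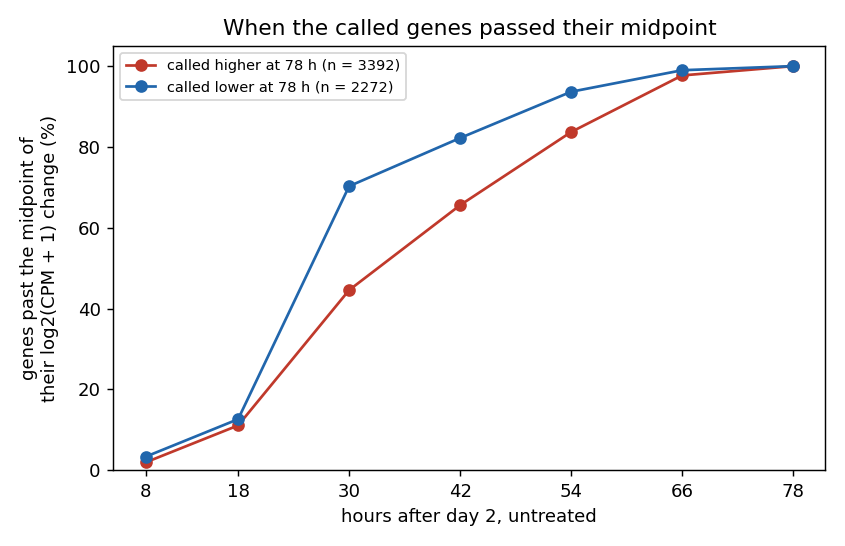
Share of the called genes (y axis, %) past the midpoint of their log2(CPM + 1) change by each untreated time (x axis, hours after day 2). The falling genes are ahead of the rising genes at 42 h (82.2% and 65.6%); the libraries of 30 h stood apart in the genes of the Y chromosome.

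Organoids were also kept with RA for the same 78 h. The same day 2 libraries are the earlier time for both groups, without pairing to the 78 h libraries. Against untreated organoids at 78 h, 7.66% of 17059 tested genes were higher with RA and 4.03% lower. Of 20 tested hindbrain and Hox genes, 10 were higher with RA, 3 were lower and 7 were not called. Among those lower, Egr2 stood at 0.58 ± 0.24 CPM (n = 3) and Hoxb1 at 8.74 ± 3.2 CPM, beside 36.3 ± 16 and 58.9 ± 2.7 CPM without RA. Among those higher, Hoxb4 and Hoxc4, expressed further back, stood at 50.3 ± 5.9 and 22.4 ± 3.8 CPM beside 2.54 ± 0.31 and 1.62 ± 0.36 CPM. The difference for Hoxb4 was 4.33 ± 0.12 on the log2 scale (adjusted p = 6.4e-10, edgeR). All 13 ventral and Hedgehog genes were higher with RA. Shh, Olig2 and Nkx2-2, too low to be tested between day 2 and untreated 78 h, entered through the RA libraries. For these only a higher level with RA could be called. Foxa2, a floor plate factor, was at 11.5 ± 1.4 CPM with RA and 0.48 ± 0.07 CPM without, and Gli1 at 45.4 ± 3.9 and 8.81 ± 0.83 CPM. Cyp26b1 was at 4.13 ± 1.8 CPM with RA and 110 ± 28 CPM without. Of the 16 tested formative and primed genes, 8 were lower with RA, 1 was higher and 7 were not called. Dnmt3b was at 110 ± 20 CPM with RA and 784 ± 71 CPM without, and Otx2 at 7.02 ± 4.7 and 65.0 ± 1.6 CPM. The gene that was higher with RA was Dnmt3l, at a log2 difference of 1.01, next to the threshold. Pax6, at 118 ± 17 CPM with RA and 95.5 ± 6.4 CPM without, was not called.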

How the data were processed

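RNAseq libraries from poly(A) RNA were made with a directional kit, and the authors trimmed reads with Trim Galore 0.5.0, filtered abundant sequences with Bowtie2 2.3.4.1, aligned to GRCm38 with STAR and summarised reads by gene in featureCounts (Subread 1.6.2). The deposited values are these counts, not normalized. The strand setting is not given in the sources used here. Of 54532 genes, 54409 were placed and named through GENCODE M21. Groups came from the labels. The 6 libraries were fitted in edgeR 4.0.16 (R 4.3.3) with TMM scaling and filterByExpr, and p-values were adjusted over all 16681 tested genes by the Benjamini-Hochberg procedure. SE is the absolute log2 fold change over the square root of F. Genes named are members of gene lists, the 12 largest rises and 12 largest falls among called genes with no overlap and at least 5 CPM in the higher group (symbols of predicted genes left out), and the 6 largest gains and losses in CPM. A few genes that the rule would name are not reported here. Exceptions are named as chosen after their values were seen. Members and lists were chosen with earlier results of these data known. Replicates of a group differed by more than counting noise (chi-square per gene 2.36 to 9.14). The test was tested on simulated data: with 16305 genes of this comparison, 97.9% of genes set at a log2 fold change of 2 and 100% of those at 3 were recovered, with 0 false calls. Only 200 genes were changed, as many up as down. In the real comparison far more genes were called, unevenly by direction, so the simulation cannot give the recovery or false calls there. A level of 3 counts was 0.124 to 0.150 CPM at day 2 and covers counting error only. Alternatives were other scalings, filters, tools (DESeq2 1.42.0), fits and left-out libraries.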

Additional observations from a re-analysis of the deposited data

Results flagged for a closer look

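With the same day 2 libraries as the earlier time, the 78 h level of 23 of 29 genes differed between organoids with and without RA (edgeR, direct test at 78 h, n = 3 per group, adjusted p under 0.01 and past a log2 difference of 1). The 29 genes were chosen after their values were seen, so their count is no measure of how often genes differed. Over all 17059 genes tested, 7.66% were higher and 4.03% lower with RA. Pax6, Lhx2, En1, Hoxa2, Hoxb2 and Hoxb9 were not called, with log2 differences from -0.63 (Hoxb2) to 0.49 (Lhx2). With RA minus untreated, the log2 difference was 4.33 for Hoxb4, 3.81 for Hoxc4, 3.31 for Hoxa5 and 2.59 for Hoxb3. For Hoxd3 it was 5.58 and for Hoxb8 2.54. It was -2.72 for Hoxb1 and -5.93 for Egr2 in the anterior hindbrain, and -3.98 for Fezf2. It was -1.004 for Sp8, -1.57 for Fgf8, -1.23 for Gbx2 and 2.36 for Pax2. In the ventral neural tube it was 4.58 for Foxa2, 2.39 for Gli1, 1.44 for Nkx6-1 and 1.22 for Dbx1. For the RA-degrading enzyme gene Cyp26b1 it was -4.71. Among pluripotency and formative genes it was -1.56 for Pou5f1, -2.89 for Pou3f1, -3.73 for Fgf5, -3.17 for Otx2 and -2.82 for Dnmt3b. These do not stand for the pluripotency lists. Of 12 naive pluripotency genes, 2 were higher with RA, 0 lower and 10 not called, with a median difference of 0.59. Of 12 general pluripotency genes, 0 were higher, 1 was lower and 11 were not called, with a median difference of -0.55.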

How the results depend on the processing

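Counts of called genes stayed within 1.5 times the reported counts under all alternatives but one. Without the fold criterion, at an adjusted p of 0.05, there were 6679 higher and 6200 lower. The lowest counts, 2334 higher and 1571 lower, came from testing each change against a log2 fold change of 1 (glmTreat in edgeR). Requiring at least 10 counts in every library gave 2353 and 1660. Leaving out each library in turn gave 3323 to 3417 genes higher and 2210 to 2354 lower. DESeq2 called 3325 and 2291, and scaling by library totals, which moved the median of all genes to 0.16, called 3779 and 1974. The same replicate numbers did not pair the libraries (correlations of same-numbered deviations between -0.07 and -0.01), and a replicate block gave 3339 higher and 2223 lower. With log2(CPM + 0.1), 14.6% of rising and 8.67% of falling genes had passed the midpoint by 18 h and 74.2% and 78.4% by 42 h, so that the order of the shares at 18 h turned. Log2 fold changes near 0 changed sign in the miR-302 cluster. Leaving out each library in turn gave -0.32 to 0.90 for Mir302a, -0.10 to 0.29 for Mir302b and -0.37 to 0.21 for Mir302c, with day 2 replicates 2 and 3 at the ends for Mir302a and Mir302c. Mir302c was also at 0.00551 with library totals, 0.45 with library series as a term and 0.46 within the later series. Some genes near a threshold lost the call when 1 library was left out. Dbx2 lost it without day 2 replicate 1 or 2 or untreated 78 h replicate 2 (1.26, 1.09 and 1.20). Notch3, of the Notch pathway, lost it without day 2 replicate 2 or untreated 78 h replicate 3 (0.96 and 0.98). Cdx2 lost it without untreated 78 h replicate 1 (-0.99), Hsp90aa1 without the same library (-0.99), Cdx1 without day 2 replicate 2 or 3 or untreated 78 h replicate 2 (-1.51, -1.48 and -1.29), Lhx2 without day 2 replicate 2 or 3 or untreated 78 h replicate 3 (1.11, 1.00 and 1.05) and Ptch1 without untreated 78 h replicate 1 or 2 (-0.98 for both). Sall4 gained it without day 2 replicate 1 or 2 or untreated 78 h replicate 3 (-1.03, -1.03 and -1.01), and Fgf5 without untreated 78 h replicate 2 (-1.05). Lhx5 lost it within the later library series (1.44), a fit with 1 day 2 library, and with library series as a term (1.43). Pax2 (1.01 and 0.999) and Dbx2 (0.79 and 0.78) lost it in the same fits. Leaving out each library in turn gave RA differences of -0.27 to 0.19 for En1 and -0.19 to 0.31 for Hoxb9, neither called, and Sp8 lost its RA call without untreated 78 h replicate 3 (-0.98) or RA 78 h replicate 1 (-0.92), as Dbx1 did without RA 78 h replicate 3 (0.97). The cause of these changes was not tested.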

Other observations

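Between the ends of the untreated course, and leaving out the 30 h libraries, 18 genes had a group mean of log2(CPM + 1) more than 1 above both day 2 and 78 h, and 14 of these were not called between the ends. This search was added after the data were seen and carries no test. Nkx1-2, a homeobox gene of the caudal epiblast, went from 15.4 CPM at day 2 to 93.4 CPM at 54 h and back to 23.6 CPM at 78 h. Gfra1, a receptor for GDNF, peaked at 54.6 CPM at 18 h, between 21.8 CPM at day 2 and 11.8 CPM at 78 h. A dip of more than 1 below both ends occurred in 5 genes, among them Jam2, a junctional adhesion molecule, at 44.5, 8.03 and 28.1 CPM at day 2, 42 h and 78 h.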
